A study of Homo sapiens with 6 samples.

Results

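The 9 genes described here carry cystine into the cell and make, recycle, use and break down glutathione: SLC7A11, SLC3A2, GCLC, GCLM, GSS, GSR, GPX1, GPX4 and CHAC1. They were chosen by name, for their place in the pathway, with earlier results of these data known. All 9 were found among the 58735 genes of the expression table. RNA sequencing of MDA-MB-231, a human breast cancer cell line that lacks oestrogen and progesterone receptors, was compared between 3 libraries from unirradiated cells (0 Gy) and 3 libraries from cells that received 10 Gy of gamma rays from a caesium source, with RNA taken 24 h later. All 6 libraries carry the label SCR and the genotype label WT. The study describes its shSCR cells as a non-targeting control, so no member was deleted or silenced by design in either group. The cells are a single cultured line. The labels do not say that the libraries came from separate cultures, so p-values measure the spread between these samples, which may be technical. The comparison asks how the transcripts of the glutathione system stood in these cells and how they differed after irradiation.

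Cystine, the oxidised form of cysteine, enters the cell through an exchanger made of the transport subunit SLC7A11 and the membrane anchor SLC3A2, which trade it for glutamate. Cysteine is joined to glutamate by the ligase of GCLC, the catalytic subunit, and GCLM, the modifier subunit, and GSS adds glycine to complete glutathione. The peroxidases GPX1 and GPX4 spend glutathione to reduce hydrogen peroxide and lipid hydroperoxides, and GSR returns the oxidised form to the reduced one with NADPH. CHAC1 cleaves glutathione inside the cell. GPX4 is best known as the enzyme that holds back ferroptosis, a form of cell death driven by peroxidised membrane lipids. Among the regulators of these genes, NFE2L2 (NRF2) acts with small MAF proteins on antioxidant response elements, and ATF4 acts on amino acid response elements.

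The line was checked against its markers. At 0 Gy the mesenchymal and basal markers VIM, AXL and CD44 had mean levels of 301, 259 and 78.6 FPKM, that is, sequenced fragments scaled to gene length and library depth. The other genes expected in the line were KRT18 at 109, KRT8 at 94.97, EGFR at 29.8 and FN1 at 27.7 FPKM. Of these 7 genes VIM, AXL and CD44 were called lower after irradiation, with log2 differences of -0.26, -0.49 and -0.11, against 23.7% of all genes tested. The other 4 were not called, with 0.18 for FN1, 0.10 for KRT8, -0.03 for KRT18 and -0.11 for EGFR. The hormone receptor genes ESR1 and PGR had 0.00872 and 0 FPKM, and the epithelial cadherin CDH1 had 0.324 FPKM. The other luminal or epithelial genes listed were above 1 FPKM, ERBB2 at 7.08, GATA3 at 3.05 and EPCAM at 1.44. Of 5 markers of other cell types, PTPRC, COL3A1 and ALB stayed below 0.02 FPKM in every library, whereas the endothelial marker PECAM1 went from 1.22 to 1.94 FPKM and the collagen gene COL1A1 from 3.03 to 4.19 FPKM and both passed the test as higher after irradiation. Their part in the results on the 9 genes was not tested. The libraries held 15643641 to 21928560 gene-assigned reads at 0 Gy and 17570365 to 28861781 at 10 Gy, recovered as whole numbers from the deposited values. The FPKM of all genes summed to 269611 to 278380 at 0 Gy and 246920 to 254918 at 10 Gy, so the scale of the table itself moved with dose, and a second scaling is given for the members and for the counts of each gene list.

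Short sequences near the start sites show where elements of the kind bound by these regulators lie in the members. RefSeq promoter windows of 300 bases (GRCh38.p14) matched 6 of the 9 genes with 10 windows. SLC7A11, GSS and GSR had none and were not searched. The letters TGACNNNGC, a core of the antioxidant response element, were searched on both strands and occur in 13.35% of 35116 such windows. They were found in GCLM, 34 to 26 bases before the start, and in 1 of the 3 windows of SLC3A2, 37 to 29 bases before the start. The letters TGATGNAA, a core of the element bound by ATF4 with a partner, were also searched on both strands and occur in 3.617% of the windows. They were found in CHAC1, 209 to 202 bases before the start, and in SLC3A2, 38 to 45 bases after the start of the same window. Capitals mark the match in each line below, in the direction of the gene, so a match on the opposite strand reads as the reverse complement. A match describes the letters and does not show that a factor binds there. The sequences lie at chr1:93909445-93909474 on the minus strand, chr11:62881652-62881681 and chr11:62881725-62881748 on the plus strand, and chr15:40953251-40953280 on the plus strand, and each overlaps, for GCLM only in part, an annotated exon of at least 1 GENCODE 29 transcript.
GCLM antioxidant element core: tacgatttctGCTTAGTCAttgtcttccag
SLC3A2 antioxidant element core: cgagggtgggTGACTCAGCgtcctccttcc
SLC3A2 ATF4 element core: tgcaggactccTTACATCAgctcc
CHAC1 ATF4 element core: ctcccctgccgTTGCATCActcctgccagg

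The peroxidases GPX1 and GPX4 carry selenocysteine, encoded by a TGA that is elsewhere a stop codon, and are the 2 members for which GENCODE 29 marks such a codon. The coding stretches around it are printed in the direction of the gene, with the codon in capitals. It lies at chr19:1105403-1105405 on the plus strand for GPX4 and at chr3:49358132-49358134 on the minus strand for GPX1, and 37 of the 63 bases of the stretches are identical.
GPX4: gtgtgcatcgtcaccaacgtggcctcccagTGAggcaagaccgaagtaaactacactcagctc
GPX1: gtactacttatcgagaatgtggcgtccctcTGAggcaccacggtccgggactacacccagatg

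In unirradiated cells the 9 members spanned 31.1-fold in mean level per length. The peroxidases led, with GPX1 at 176 FPKM and GPX4 at 105 FPKM, followed by SLC3A2, GCLM, GSS, GSR, SLC7A11 and CHAC1, and GCLC was lowest at 5.64 FPKM. GPX1 stood above 98.6% of the genes tested and GCLC above 43.1%, against a median of 7.11 FPKM over all tested genes. The 3 libraries of each gene did not overlap those of its neighbour anywhere in this order. At 10 Gy the order was the same except that GSS lay above GCLM, again with no overlap between neighbours. The summed level of the 9 members was 473 ± 24.6 FPKM at 0 Gy and 393 ± 1.75 FPKM at 10 Gy (mean ± SD, n = 3 each).

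**Figure D1:**
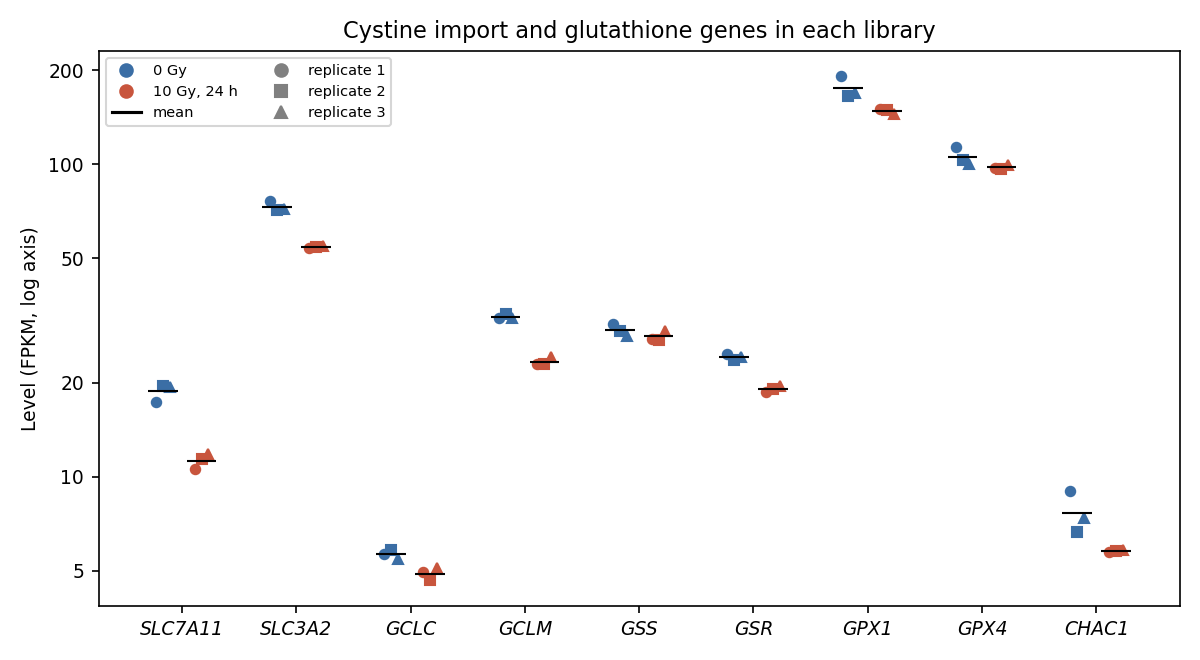
Level of each member in FPKM on a log axis, with 1 point per library, a marker shape per replicate number and a line at each group mean. GPX1 and GPX4 sit highest and GCLC and CHAC1 lowest, and the 10 Gy points lie below the 0 Gy points for every gene except GSS, whose groups overlap.

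After irradiation 7 of the 9 members were lower and none was higher at a Benjamini-Hochberg adjusted p below 0.05 by limma on log2(FPKM + 1), over the 12128 genes that averaged 1 FPKM or more. In the same fit 35.6% of all genes tested were called, 23.7% lower and 11.9% higher. The 2 members not called were GSS and GPX4. SLC7A11, GCLM and SLC3A2 were lower by at least 1.3-fold, a size reached downward by 2.95% and upward by 2.82% of all genes tested. CHAC1 passed this size with a pseudocount of 0.1 (log2 difference -0.39), with which 4.30% of all genes tested reached it downward, and without 0 Gy replicate 2. On the scale of TPM, each FPKM divided by its library sum, only SLC7A11 of the members reached it, with 0.915% of all genes, and under median-of-ratios scaling or limma-voom SLC7A11 and GCLM did, with 1.86% and 2.28% of all genes. The libraries of the groups did not overlap, with 10 Gy lower, for 8 of the 9, against 32.8% of all genes tested. The median log2 difference was -0.32 over the members and -0.04 over all genes tested. Without 10 Gy replicate 2 the members called lower numbered 4 and none was higher, against 14.9% lower and 7.03% higher over all genes. The share of all genes called lower also depended on the genes tested. With a mean of at least 5 FPKM, 7 of the 9 members were lower and none higher, against 37.6% lower of 7262 genes. With protein-coding genes alone, 6 of 8 members were lower and none higher, against 29.9% lower and 14.8% higher over all genes. In bulk RNA a lower level from fewer cells that express a gene and one from less RNA per cell cannot be told apart.

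The transport subunit SLC7A11 (ENSG00000151012, chr4:138164097-138242349, minus strand) had the largest difference of the 9. Its level was 17.4, 19.6 and 19.3 FPKM in the 0 Gy libraries and 10.6, 11.4 and 11.8 FPKM in the 10 Gy libraries. Every irradiated library lay well under the lowest control. The mean fell by 39.9%, with a log2 difference of -0.69 (SE 0.057, 95% interval -0.82 to -0.55, adjusted p = 0.00059, limma). Only 0.264% of the genes tested had a lower log2 difference. The values rest on 2007 to 4037 reads per library. An antisense gene, SLC7A11-AS1, overlaps it and stayed at or below 0.114 FPKM, and whether counting used the strand is not given in the sources used here.

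Its partner SLC3A2 (ENSG00000168003, chr11:62856102-62888875, plus strand), the chain that brings SLC7A11 to the membrane, had 76.1, 71.6 and 72.0 FPKM at 0 Gy and 54.2, 54.3 and 54.9 FPKM at 10 Gy. The irradiated libraries lay within 1 FPKM of each other and below every control. The mean went from 73.2 ± 2.49 to 54.5 ± 0.4 FPKM (SD, n = 3), a log2 difference of -0.42 (SE 0.033, adjusted p = 0.00059, limma). Its other light chains form amino acid exchangers of their own, and the 2 that were tested were not called. SLC7A5, the carrier of large neutral amino acids, had 98.6, 98.7 and 98.4 FPKM at 0 Gy and 99.2, 97.6 and 100.2 FPKM at 10 Gy. Its log2 difference was 0.01 with a 95% interval of -0.06 to 0.07. SLC7A6 had a log2 difference of 0.04 with an interval of -0.11 to 0.19. The other 3 light chains were below 1 FPKM and were not tested. With each value divided by its library sum, 1 of the 2 tested was called higher, as were 25.8% of all genes. Limma-voom also called 1 of the 2 higher, with 23.0% of all genes.

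GCLM (ENSG00000023909, chr1:93885205-93909456, minus strand), the modifier subunit that raises the activity of the ligase, had 32.2, 33.3 and 32.2 FPKM at 0 Gy and 23.0, 22.9 and 24.2 FPKM at 10 Gy. The groups were separated by several times the spread within either. The log2 difference was -0.46 (SE 0.034, adjusted p = 0.00048, limma). GCLM and SLC3A2 are the 2 members, of the 6 searched, with an antioxidant element core in a window. Of all 27305 genes with such windows, 16.06% had this core.

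The catalytic subunit GCLC (ENSG00000001084, chr6:53497341-53616970, minus strand) stood at a much lower level and differed less. Its libraries had 5.67, 5.82 and 5.44 FPKM at 0 Gy and 4.94, 4.66 and 5.10 FPKM at 10 Gy. The groups did not overlap, but the gap between the lowest control and the highest irradiated library was smaller than the range within either group. The log2 difference was -0.17 (SE 0.046, 95% interval -0.28 to -0.06, adjusted p = 0.026, limma). The call was lost under median-of-ratios scaling (adjusted p = 0.0612), TPM scaling (0.307), limma-voom (0.0751) and with no filter on low values (0.0643). It was also lost without 0 Gy replicate 1 (0.0542), 0 Gy replicate 2 (0.0687), 10 Gy replicate 1 (0.0702) or 10 Gy replicate 2 (0.0882). The lowest depth behind it was 735 reads.

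GSS (ENSG00000100983, chr20:34928433-34956027, minus strand), which completes glutathione, was the member whose groups overlapped. It had 30.8, 29.4 and 28.2 FPKM at 0 Gy and 27.7, 27.5 and 29.3 FPKM at 10 Gy. The log2 difference was -0.06 with a 95% interval of -0.16 to 0.04 (adjusted p = 0.29, limma), and it was -0.0308 without 0 Gy replicate 1. The reductase GSR (ENSG00000104687, chr8:30678061-30727999, minus strand) had 24.7, 23.7 and 24.2 FPKM at 0 Gy and 18.7, 19.1 and 19.5 FPKM at 10 Gy. Both groups were tight and lay apart. The mean of GSR fell by 20.9%, a log2 difference of -0.32 (SE 0.032, adjusted p = 0.00081, limma).

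GPX1 (ENSG00000233276, chr3:49357171-49358600, minus strand), the abundant cytosolic peroxidase, had 191.9, 166.1 and 169.0 FPKM at 0 Gy and 150.5, 149.2 and 145.1 FPKM at 10 Gy. Control replicate 1 stood above the other controls, and all irradiated libraries lay below all controls. The log2 difference was -0.24 (SE 0.057, 95% interval -0.37 to -0.11, adjusted p = 0.017, limma). The call was lost under TPM scaling (adjusted p = 0.12), with no filter on low values (0.0710) and without 10 Gy replicate 2 (0.0548) or 10 Gy replicate 3 (0.0563). The annotation holds GPX1 as a polymorphic pseudogene and names 2 pseudogene copies, GPX1P1 and GPX1P2, which may share reads with it and had at most 1.32 FPKM.

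GPX4 (ENSG00000167468, chr19:1103926-1106791, plus strand), the peroxidase of membrane lipids, had 113, 103 and 100.02 FPKM at 0 Gy and 97.5, 96.8 and 99.3 FPKM at 10 Gy. The groups did not overlap, but only 0.764 FPKM separated them. The log2 difference was -0.11 with a 95% interval of -0.22 to 0.01 (adjusted p = 0.13, limma), so a difference was not detectable with these libraries. Without 0 Gy replicate 1, the highest control, the log2 difference was -0.05.

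CHAC1 (ENSG00000128965, chr15:40952962-40956519, plus strand), the enzyme that cleaves glutathione and a known target of ATF4, had 9.02, 6.64 and 7.36 FPKM at 0 Gy and 5.74, 5.80 and 5.81 FPKM at 10 Gy. The controls were spread over a coefficient of variation of 15.9%, against 0.720% among the irradiated libraries. The log2 difference was -0.35 (SE 0.092, 95% interval -0.56 to -0.13, adjusted p = 0.025, limma). CHAC1 had the fewest reads of the members, 210 to 396 per library. Its call was lost under TPM scaling (adjusted p = 0.0674), with no filter on low values (0.0971) and without 10 Gy replicate 1 (0.0716), 10 Gy replicate 2 (0.0710) or 10 Gy replicate 3 (0.0618).

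The direction of the smaller differences depended on the scale of the table. As TPM, the median log2 difference of all genes moved from -0.04 to 0.07, and the share of called genes that were lower went from 66.6% to 25.5%. On that scale 8.83% of all genes were called lower and 25.8% higher, and 4 members were called lower and none higher: SLC7A11, SLC3A2, GCLM and GSR, with log2 differences of -0.57, -0.29, -0.34 and -0.20. These 4 genes were called lower under all 17 alternative settings. Taken relative to the median of all genes, the differences of the 4 were -0.65, -0.38, -0.42 and -0.28 on the FPKM scale and -0.63, -0.36, -0.41 and -0.27 on the TPM scale. GSS and GPX4, uncalled on either scale, had log2 differences of 0.06 and 0.02 as TPM.

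**Figure D2:**
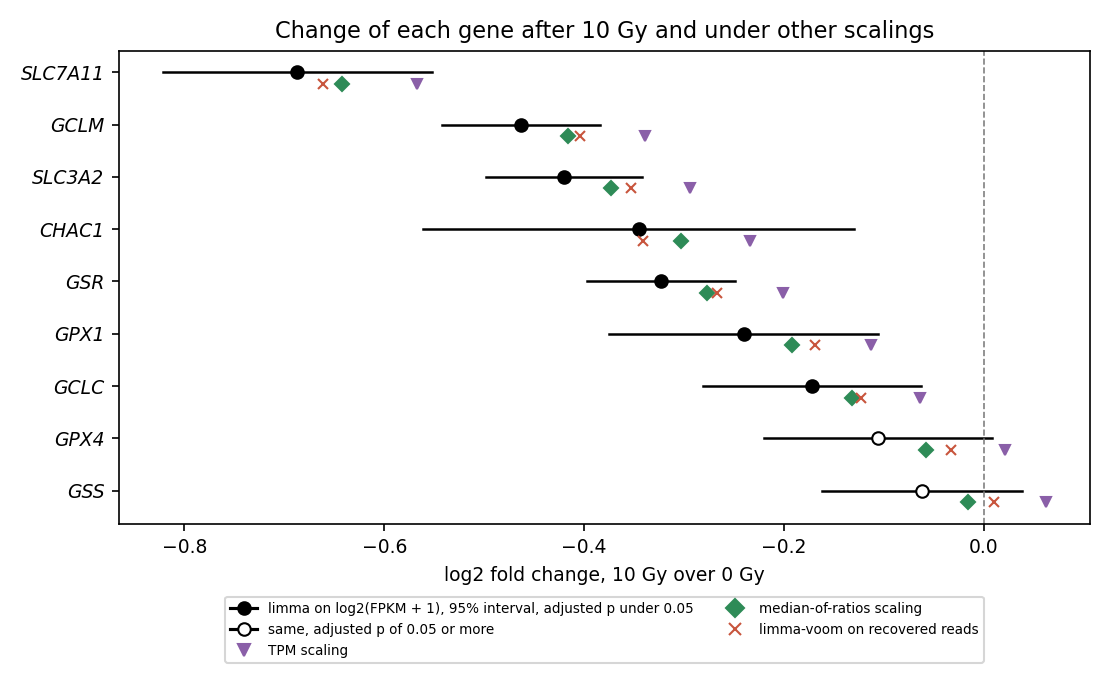
Log2 difference of each member, 10 Gy minus 0 Gy, from limma on log2(FPKM + 1) with its 95% interval (filled where called, open where not), beside the values under TPM scaling, median-of-ratios scaling and limma-voom on recovered reads. SLC7A11, SLC3A2, GCLM and GSR lie below 0 under every scaling shown, and GSS and GPX4 cross 0 as TPM.

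Ratios of partner genes within a library do not depend on the scaling. SLC7A11 relative to SLC3A2 was 0.228, 0.273 and 0.268 at 0 Gy and 0.195, 0.210 and 0.215 at 10 Gy, so the transport subunit was the lower of the pair by a larger margin in each irradiated library. GCLC relative to GCLM was 0.176, 0.175 and 0.169 at 0 Gy and 0.215, 0.203 and 0.211 at 10 Gy, a shift toward the catalytic subunit. GPX4 relative to GPX1 was 0.591, 0.621 and 0.592 at 0 Gy and 0.648, 0.649 and 0.684 at 10 Gy. The groups did not overlap for any of the 3 ratios. The log2 differences were -0.31 (SE 0.093), 0.28 (SE 0.030) and 0.14 (SE 0.035). A two-sided exact permutation test gave p = 0.1 for each, also after Benjamini-Hochberg adjustment over the 3, and 0.1 is the smallest p that 3 against 3 libraries can give.

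**Figure D3:**
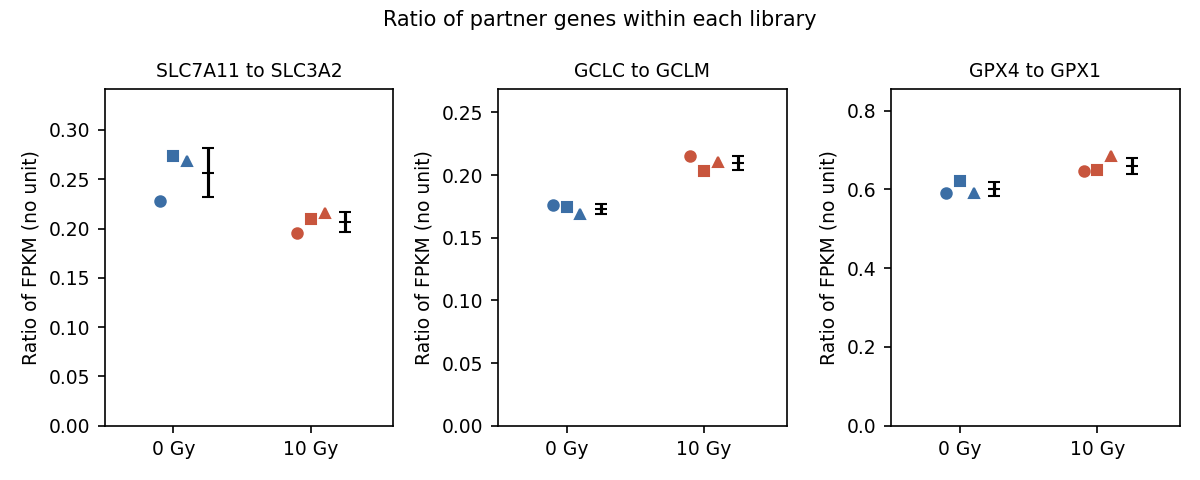
Ratio of FPKM within each library for SLC7A11 to SLC3A2, GCLC to GCLM and GPX4 to GPX1, 1 point per library with the mean and SD of each group, on axes that start at 0. The 10 Gy libraries lie below the controls in the first panel and above them in the others.

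Lists of further genes of the pathway, 11 in all, held 131 gene names, of which 129 were found among the measured genes. Of these, 100 reached a mean of 1 FPKM and were tested. On the FPKM scale 40 of these 100 were lower and 7 higher, with a median log2 difference of -0.12, against 23.7% lower and 11.9% higher over all genes. On the TPM scale the counts were 26 lower and 23 higher, against 8.83% lower and 25.8% higher over all genes. By list, the TPM counts were 0 lower and 2 higher among the other peroxidases and 2 and 6 among the S-transferases. They were 0 and 3 among the transporters, 3 and 2 in cysteine supply, and 2 and 1 in the list of glutaredoxins and glyoxalases. The selenocysteine machinery had 2 and 1, and the genes linked to lipid peroxides without glutathione had 2 and 2. Of the 47 calls, 14 were not made on the TPM scale: GPX8, GLRX2, GGT5, LAP3, CNDP2, ABCC4, CTH, SEPHS2, SECISBP2, TRNAU1AP, VKORC1L1, NFE2L2, MAFF and ME1. Leaving out 1 library lost 9 of the 47 calls in at least 1 case, those of GPX8, GLRX2, ABCC4, ABCC5, CTH, SEPHS2, TRNAU1AP, POR and ME1.

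Among genes that break glutathione down or run the gamma-glutamyl cycle, 5 of 7 tested were lower and none higher (median -0.21), against 23.7% lower and 11.9% higher over all genes. CHAC2, the constitutive relative of CHAC1, had 11.8, 11.3 and 12.6 FPKM at 0 Gy and 8.40, 8.96 and 9.72 FPKM at 10 Gy (log2 difference -0.36, adjusted p = 0.0041). GGCT, which acts on gamma-glutamyl amino acids, fell from 19.6 to 15.6 FPKM, and GGT5 and CNDP2, peptidases of glutathione and of its dipeptide, had log2 differences of -0.23 and -0.21. The fifth was LAP3 at -0.19. On the TPM scale 2 of the 7 were lower and 1 higher, against 8.83% and 25.8% over all genes.

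In the supply and use of cysteine 4 of 14 tested genes were lower and none higher, a share of lower genes near the 23.7% of all genes. SLC1A5, a glutamine and neutral amino acid exchanger, fell from 102 to 80.4 FPKM (log2 difference -0.34, adjusted p = 0.00099). AHCY, which makes homocysteine, SLC1A4, a neutral amino acid exchanger, and CTH, which releases cysteine from cystathionine, had log2 differences of -0.29, -0.29 and -0.27. CBS, the enzyme before CTH, was listed at 0 in all 6 libraries and was not tested. The treatment of reads shared between copies of a sequence is not given, so this 0 does not show that CBS was silent.

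Among the enzymes that use glutathione, 2 of 13 glutathione S-transferases tested were lower and 1 higher, or 4 higher without 0 Gy replicate 1. Over all genes 23.7% were lower and 11.9% higher, or 11.5% higher without 0 Gy replicate 1. MGST1, a membrane transferase with peroxidase activity, fell from 23.3 to 17.8 FPKM and GSTO1 from 93.6 to 79.9 FPKM, while GSTT2B, which has a near-identical neighbour that may share its reads, rose from 12.1 to 16.6 FPKM. Of the other peroxidases, GPX8 of the endoplasmic reticulum had a log2 difference of -0.17 and GPX7, its relative at 1.32 FPKM in controls, one of 0.42, and both were called. Of 7 genes listed with the glutaredoxins and glyoxalases 3 were lower: the esterase ESD, GLRX3 and GLRX2, with log2 differences of -0.32, -0.23 and -0.14. Of 7 transporters of glutathione and its conjugates, ABCC4 was lower (-0.22) and ABCC3 and ABCC5 were higher (0.29 and 0.16).

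The machinery that inserts selenocysteine, on which GPX1 and GPX4 depend, had 5 of 10 tested genes lower and 1 higher, against 23.7% and 11.9% of all genes. The lower genes numbered 3 without 0 Gy replicate 3, 10 Gy replicate 2 or 10 Gy replicate 3. In those fits 20.3%, 14.9% and 18.0% of all genes were lower. SARS, the enzyme that charges the selenocysteine transfer RNA with serine, fell from 68.8 to 50.3 FPKM (log2 difference -0.44, adjusted p = 0.00061). LRP8, a receptor for the selenium carrier of plasma, had -0.42, SECISBP2, which binds the selenocysteine element of the transcripts, -0.27, and TRNAU1AP -0.26. SEPHS2, which makes the selenium donor, had -0.13. Of these 5 only SARS and LRP8 were called lower on the TPM scale, and LRP8 is a receptor rather than part of the insertion machinery. Of 10 genes linked to lipid peroxides without glutathione, AIFM2, STARD7 and VKORC1L1 were lower, with log2 differences of -0.29, -0.22 and -0.21. AIFM2 (FSP1) is a reductase of ubiquinone, STARD7 a lipid transfer protein and VKORC1L1 a vitamin K reductase. The list also holds POR, the reductase of cytochromes P450, which was higher at 0.14. Without 0 Gy replicate 3 the lower genes of this list numbered 5, in a fit with 20.3% of all genes lower.

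**Figure D4:**
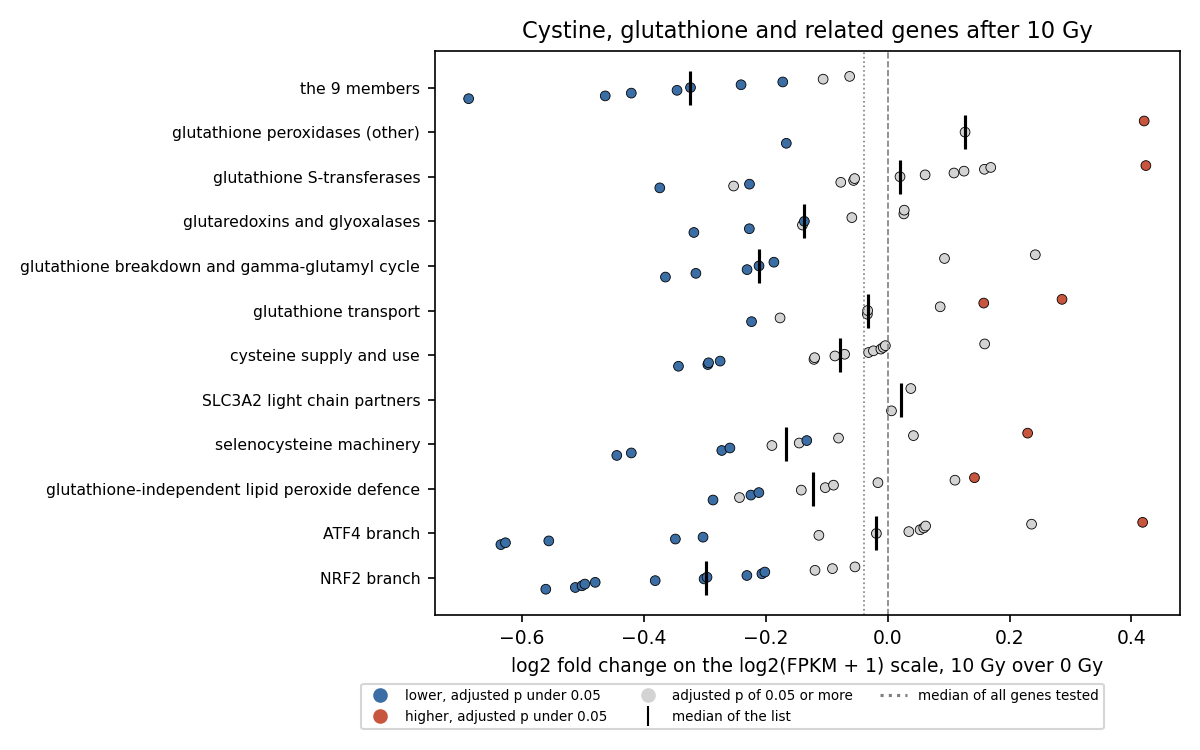
Log2 difference, 10 Gy minus 0 Gy on the log2(FPKM + 1) scale, of each tested gene in the members and in the 11 pathway lists, coloured by whether it was called lower, higher or not called, with the median of each list and a dotted line at the median of all genes tested (-0.04). No gene was called higher among the members and in 5 of the lists (NRF2, breakdown, cysteine supply, glutaredoxins and glyoxalases, and light chain partners), and the ATF4 list spreads to either side.

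Genes of the NRF2 branch were lower in 11 of 14 cases and higher in none, against 23.7% lower and 11.9% higher over all genes, with a median log2 difference of -0.30. On the TPM scale 8 of the 14 were lower and none higher, against 8.83% and 25.8% over all genes. TXNRD1, thioredoxin reductase, had 109, 114 and 107 FPKM at 0 Gy and 71.5, 75.9 and 75.7 FPKM at 10 Gy (log2 difference -0.56, adjusted p = 0.00044). NQO1, a quinone reductase, fell from 131 to 91.2 FPKM, and SRXN1, which restores peroxiredoxins, and OSGIN1 each had a log2 difference of -0.50. NFE2L2 itself had 14.5, 13.9 and 14.4 FPKM at 0 Gy and 12.5, 12.05 and 12.2 FPKM at 10 Gy (log2 difference -0.21, adjusted p = 0.0037), with no overlap between the groups. KEAP1, which marks NRF2 for degradation, had a log2 difference of -0.30. The small MAF gene MAFF had 17.6, 15.8 and 16.8 FPKM at 0 Gy and 13.9, 14.3 and 14.1 FPKM at 10 Gy, a log2 difference of -0.23 (adjusted p = 0.0067). BACH1, a repressor at the same elements, had -0.09, or -0.0548 without 0 Gy replicate 2, and was not called. As TPM, NFE2L2 and MAFF were no longer called, with adjusted p of 0.0926 and 0.0688.

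The ATF4 branch was mixed, with 5 of 13 tested genes lower and 1 higher, against 23.7% and 11.9% of all genes. Its median log2 difference had no stable sign, at -0.0182 in FPKM, 0.0244 under median-of-ratios scaling, 0.0616 by limma-voom and 0.0955 as TPM. With a mean of at least 5 FPKM it was -0.160, over 10 tested genes. Leaving out 1 library moved it between -0.0718 (without 0 Gy replicate 1) and -0.00751 (without 10 Gy replicate 2), and it was -0.0297 without 10 Gy replicate 3. ATF4 had 166, 152 and 150 FPKM at 0 Gy and 124, 125 and 130 FPKM at 10 Gy (log2 difference -0.30, adjusted p = 0.0033). TRIB3, a pseudokinase, PPP1R15A, a phosphatase subunit that restores translation, and PSAT1, an enzyme of serine synthesis, had log2 differences of -0.63, -0.63 and -0.56. DDIT3 (CHOP) had 16.3, 14.2 and 13.6 FPKM at 0 Gy and 11.1, 10.9 and 11.9 FPKM at 10 Gy, a log2 difference of -0.35 (adjusted p = 0.0077). DDIT4, an inhibitor of mTORC1 signalling, rose from 24.4 to 32.9 FPKM. ATF3, a stress-induced relative of ATF4, had 1.45 and 1.88 FPKM and was not called (log2 difference 0.24, adjusted p = 0.066), but was called higher under 5 alternatives: limma-voom (log2 difference 0.49, adjusted p = 0.00626), TPM scaling (0.0247), median-of-ratios scaling (0.0465), protein-coding genes alone (0.0235) and without 0 Gy replicate 2 (0.0269). On the TPM scale 5 genes of the branch were lower and 4 higher, against 8.83% and 25.8% of all genes.

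For each member called, the 2 protein-coding genes with the most similar profile over the 6 libraries were taken as those with the smallest largest deviation in log2 level after centring, out of 10491 searched. They were RRM2 and UNG for SLC7A11, DNAJC9 and SRPRB for SLC3A2, ANAPC4 and RALB for GCLC, and SSR3 and SLC43A3 for GCLM. For GSR they were SDC1 and MRPL39, for GPX1 SELENOH and GYG1, and for CHAC1 C19orf70 and DCTPP1. The deviation was 0.0185 for ANAPC4 and 0.0208 for SDC1, and at 0.146 the nearest profile to SLC7A11 was the least close of the nearest profiles. RRM2, a subunit of ribonucleotide reductase, went from 35.1 to 21.6 FPKM and UNG, a uracil glycosylase, from 69.7 to 45.2 FPKM. The libraries and their depth are shared by all these genes, and the likeness is a description of 6 libraries.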

How the data were processed

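Polyadenylated RNA of 6 libraries was sequenced, and the authors deposited 1 table of FPKM per gene. HISAT2 and GRCh38 are named in the submitters' processing notes. The counting program and its use of strand are not given in the sources used here. Positions and lengths matched GENCODE 29 for all 58735 genes. FPKM times gene length gave whole reads within 0.05 read for 100% of values, which gave the depth and an alternative test (limma-voom). The depth behind the FPKM was 0.973 to 0.991 of the gene-assigned reads at 0 Gy and 1.03 to 1.04 at 10 Gy.

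Genes that averaged 1 FPKM or more were tested on log2(FPKM + 1) with limma 3.58.1 (R 4.3.3, empirical Bayes with trend, 2 groups, Benjamini-Hochberg adjustment over 12128 genes). Fold changes on this scale understate those of low genes. The threshold of 1.3-fold is that of the study. Intervals are 95% intervals of the fit for single genes. Ratios were compared by exact permutation. On simulated data the test recovered 97% of 2-fold and 37% of 1.3-fold changes. Of the genes called there, 8.84% were unchanged. The simulation changed 100 genes by each size, without a shift of scale with dose, and 147 genes were called. In the data 4317 genes were called and the scale moved with dose, so these percentages do not carry over to this comparison. Motifs, RefSeq windows and figures were handled in Python 3.11.15 and matplotlib 3.10.9.

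Named genes were the 9 members, 7 regulators (ATF4, DDIT3, ATF3, NFE2L2, KEAP1, BACH1 and MAFF), up to 4 called genes per list with the largest difference, and the 2 nearest profiles of each called member. LAP3, SEPHS2, ME1, CBS, SLC7A5 and SLC7A6 and the markers were named outside this rule. The members and lists were chosen with earlier results of these data known. Alternatives were another pseudocount, filter, scaling, moderation and gene set, a replicate block, and leaving out each library.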

Additional observations from a re-analysis of the deposited data

How the results depend on the processing

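Of the 9 members, SLC7A11, SLC3A2, GCLM and GSR were called lower under all 17 alternatives, with log2 differences of -0.74 to -0.57, -0.44 to -0.29, -0.49 to -0.34 and -0.34 to -0.20. CHAC1 was called in 12 of 17, GCLC in 8 of 17, GPX1 in 12 of the 16 that could include it, and GSS and GPX4 in none. Without a filter on low values 1815 genes were lower (2874 with it), 4 members were lower (7 with it) and 4 pathway genes were higher (7 with it). More genes were tested there, and the share over all genes was 5.73% lower and 3.47% higher of 31650, against 23.7% and 11.9% of 12128 with the filter. With a mean of at least 5 FPKM, 2734 genes were lower and 874 higher (2874 and 1443 with the lower filter), among 7262 genes tested. The share of all genes lower was then 37.6%, so 23.7% understates the background for genes at such levels. Under TPM scaling 1071 genes were lower and 3127 higher, with 4 members lower, 26 pathway genes lower and 23 higher. Median-of-ratios scaling gave 11 pathway genes higher, and limma-voom gave 2795 genes and 21 pathway genes higher. Lower calls were 66.6% of all calls in FPKM, 51.3% under median-of-ratios scaling, 40.9% by limma-voom and 25.5% as TPM. The log2 difference changed sign as TPM for GSS (0.0619), GPX4 (0.0215) and BACH1 (0.0185), and by limma-voom for GSS (0.0105), and none of these was called. Leaving out 1 library gave 1808 to 2630 genes lower (14.9% to 21.7% of all genes) and 852 to 1393 higher (7.03% to 11.5%). The members called lower then numbered 4 to 7, the fewest without 10 Gy replicate 2. The cause was not tested.

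Samples with the same replicate number did not deviate together (correlations of -0.0405, -0.0349 and -0.101 between their deviations), so the numbers were not used as pairs. With a replicate block 3503 genes were called (4317 without), and 6 members were lower, GCLC being lost (adjusted p = 0.0692, limma). In that fit 19.5% of all genes were lower. CHAC1 had the lowest depth of the members, 210 reads in 1 library.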
